A study of Mus musculus with 12 samples.

Results

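The genes of polyamine synthesis and breakdown were examined in mouse kidney: Odc1, Srm and Sms for synthesis, Oaz1 and Azin1 for control of the ODC enzyme, and Sat1, Smox and Aoc1 for breakdown. They are the 8 of 39171 genes in the deposited count table whose symbol is one of these names, and all 8 had counts high enough to be tested. The RNA was that of 12 male mice, none older than 3 months, sequenced as 1 library per mouse. Of these, 4 were homozygous for the GNE M743T knock-in and classed as sick, 4 carried the same GNE M743T/M743T genotype and were classed as healthy, and 4 were wild-type and healthy. Sick and healthy knock-in mice thus share their genotype, and no treatment is named for any group. The labels say neither what the sickness was nor whether mice were littermates, and a substitution in Gne cannot be read from counts per gene.

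Polyamines are small positively charged molecules that bind nucleic acids and that growing cells need. Ornithine is decarboxylated to putrescine by the enzyme that Odc1 encodes, and aminopropyl groups are added by spermidine synthase (Srm) and then spermine synthase (Sms). Breakdown runs through acetylation by SAT1, through oxidation of spermine by spermine oxidase (Smox), and through oxidation of putrescine and histamine by the secreted diamine oxidase that Aoc1 encodes. In the kidney of male mice Odc1 is a classic androgen-induced gene of the proximal tubule.

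The kidneys of sick knock-in mice held the polyamine genes in a different balance from both other groups. Odc1 was about 13.0-fold lower and Aoc1 16.0-fold higher than in wild-type mice, Smox was higher, and Sms and Azin1 were lower. Against wild-type mice 6 of the 8 genes passed the test, 2 higher and 4 lower, where 50.9% of the 15589 genes tested did so in either direction, 25.9% higher and 25.0% lower. Against healthy knock-in mice 5 of the 8 passed, 2 higher and 3 lower, where 46.4% of all genes did so, 24.5% higher and 21.9% lower. In each of these comparisons 5 genes, Odc1, Sms, Azin1, Smox and Aoc1, had no overlap between the 4 and 4 mice, where 43.2% of all genes had none against wild-type and 47.2% against healthy knock-in mice. Since close to 1 gene in 2 passed in each comparison, these counts by themselves do not set the polyamine genes apart, and the sizes are given below. Against wild-type mice 0.597% of all genes had a log2 fold change below that of Odc1, and 98.9% one below that of Aoc1. The share below was 9.92% for Sms, 16.5% for Azin1, 20.9% for Oaz1 and 88.0% for Smox, so many genes moved as far as these. Passing means a Benjamini-Hochberg adjusted p under 0.05 over all genes tested in edgeR's quasi-likelihood test.

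The windows just upstream of the RefSeq start sites of the 3 genes with the largest log2 fold changes differ in composition, and they are shown for that reason. They are 250 bases long, on the plus strand of GRCm38.p6, 5′ to 3′, from RefSeq; capitals mark the GC box GGGCGG or its reverse complement CCGCCC. The Odc1 window is chr12:17544623-17544872, the Smox window chr2:131491612-131491861, and the Aoc1 windows, from 2 start sites, chr6:48895005-48895254 and chr6:48904736-48904985.
Odc1: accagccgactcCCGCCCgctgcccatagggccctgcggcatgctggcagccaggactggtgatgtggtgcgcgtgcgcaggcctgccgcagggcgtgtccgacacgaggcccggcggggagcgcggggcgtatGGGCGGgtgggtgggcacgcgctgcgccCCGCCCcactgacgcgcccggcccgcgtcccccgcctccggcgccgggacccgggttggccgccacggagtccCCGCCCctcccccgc
Smox: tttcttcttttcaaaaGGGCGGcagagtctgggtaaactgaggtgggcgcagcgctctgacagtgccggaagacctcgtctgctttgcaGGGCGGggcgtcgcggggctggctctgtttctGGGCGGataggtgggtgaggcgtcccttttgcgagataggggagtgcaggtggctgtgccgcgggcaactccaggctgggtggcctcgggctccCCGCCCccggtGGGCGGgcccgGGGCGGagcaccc
Aoc1, start site farther upstream: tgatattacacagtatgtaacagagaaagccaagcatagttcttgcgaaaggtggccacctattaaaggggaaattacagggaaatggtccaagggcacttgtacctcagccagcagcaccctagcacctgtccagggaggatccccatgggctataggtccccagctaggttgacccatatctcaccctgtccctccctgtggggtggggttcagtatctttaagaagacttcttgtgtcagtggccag
Aoc1, start site farther downstream: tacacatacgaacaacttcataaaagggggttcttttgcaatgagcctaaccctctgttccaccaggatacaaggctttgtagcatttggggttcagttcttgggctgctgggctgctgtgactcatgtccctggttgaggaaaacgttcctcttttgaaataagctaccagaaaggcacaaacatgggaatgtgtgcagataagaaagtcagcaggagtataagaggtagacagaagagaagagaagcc

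The Odc1 window was 80.0% G and C with 35 CpG pairs and 4 GC boxes, and the Smox window was 68.0% G and C with 20 CpG pairs and 6 GC boxes. The Aoc1 windows were 51.2% and 45.6% G and C, with 1 and 2 CpG pairs and no GC box. Over 32851 mouse promoter windows of this length the median was 52.4% G and C with 6 CpG pairs, and 32.7% held a GC box on either strand. The E-box CACGTG, the element TATAAA and the androgen receptor half-site AGAACA were also searched on both strands, and 6.02%, 12.4% and 16.1% of all windows held them. None of the 3 was found in these 4 windows, which says only that these letters are not there. Of the 8 genes 6 had a RefSeq window in the table used, and 1 of the Sms windows held CACGTG and the Sat1 window AGAACA.

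**Figure D1:**
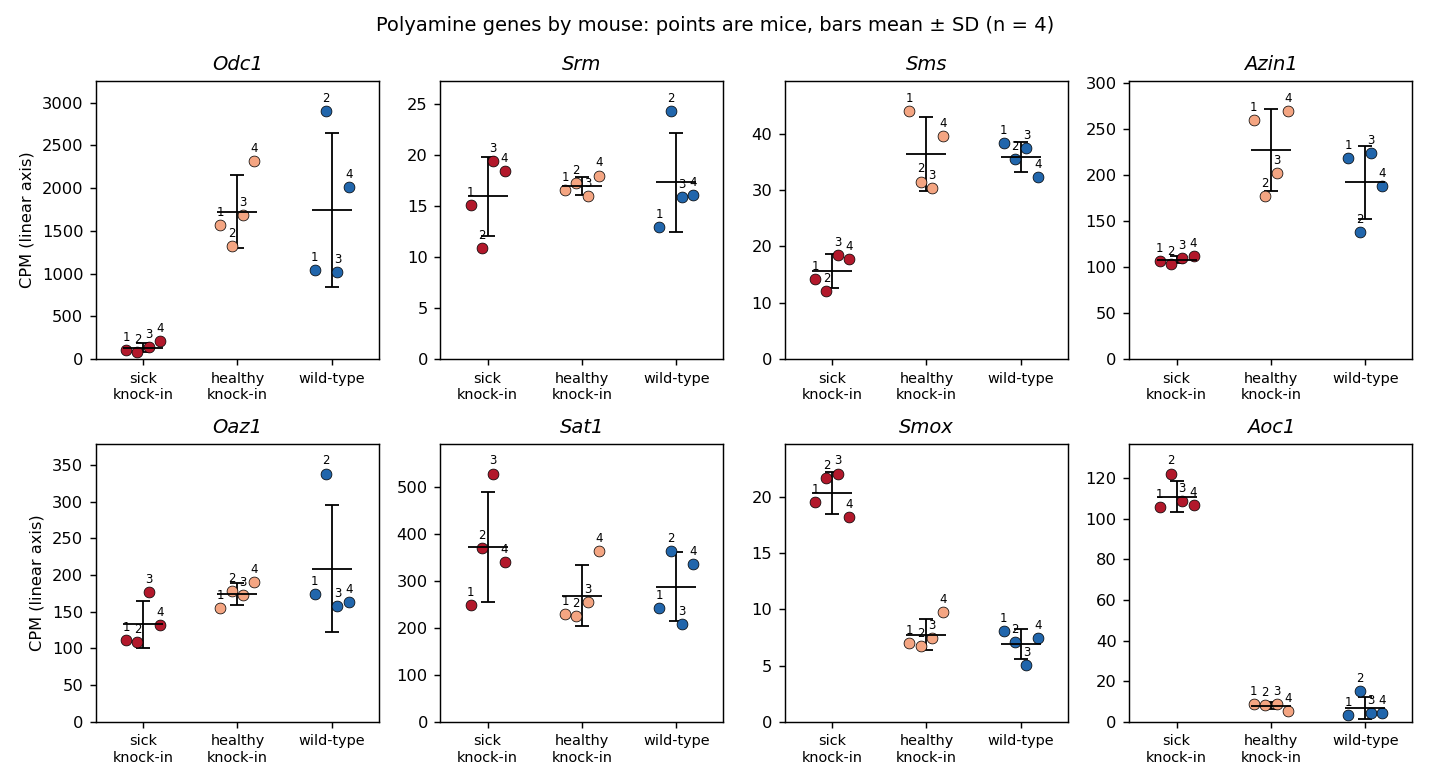
Level of each gene in CPM on a linear axis, 1 point per mouse with its number, with the mean and SD of the 4 mice of a group as bars. For Odc1, Sms and Azin1 the 4 sick knock-in mice lie below all 8 other mice, and for Smox and Aoc1 above them.

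Odc1 encodes the rate-limiting enzyme of the pathway. It stood at 103, 82.8, 139 and 213 CPM in sick mice 1 to 4, against 1563, 1325, 1688 and 2319 CPM in healthy knock-in mice 1 to 4 and 1037, 2904, 1019.8 and 2016 CPM in wild-type mice 1 to 4. CPM here are counts scaled to the effective library size. The highest sick mouse stayed far below the lowest of the other 8, while the wild-type mice spread widely among themselves. The means were 134 ± 57.2 CPM in sick, 1724 ± 424 CPM in healthy knock-in mice and 1744 ± 903 CPM in wild-type mice (SD, n = 4 each). Its log2 fold change was -3.70 ± 0.41 (SE) for sick against wild-type mice (edgeR adjusted p = 1.75e-05) and -3.68 ± 0.41 for sick against healthy knock-in mice (edgeR adjusted p = 2.42e-05). The gene lies at chr12:17544794-17551505 on the plus strand of GRCm38.

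Srm, which encodes spermidine synthase, did not pass in any comparison. It stood at 15.1, 10.9, 19.4 and 18.4 CPM in sick mice, against 16.6, 17.3, 16.0 and 18 CPM in healthy knock-in mice and 12.9, 24.3, 15.9 and 16.1 CPM in wild-type mice. The 3 ranges overlapped. In edgeR its log2 fold change was -0.12 for sick against wild-type mice (95% interval -0.58 to 0.34) and -0.09 for sick against healthy knock-in mice (-0.55 to 0.37). Changes within those bounds thus remain compatible with the values of 4 mice a group. The edgeR adjusted p was 0.655 against wild-type and 0.751 against healthy knock-in mice.

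Sms, which encodes spermine synthase, fell in sick mice. It stood at 14.2, 12, 18.5 and 17.7 CPM in sick mice, against 44.0, 31.5, 30.3 and 39.6 CPM in healthy knock-in mice and 38.3, 35.5, 37.4 and 32.4 CPM in wild-type mice. No sick mouse reached the level of any other mouse. The log2 fold change was -1.21 ± 0.17 for sick against wild-type mice (edgeR adjusted p = 8.43e-05), 2.31-fold lower, and -1.23 ± 0.17 for sick against healthy knock-in mice (edgeR adjusted p = 9.15e-05). Per exon length, the ratio of Sms to Srm was 0.250 to 0.293 in sick, 0.485 to 0.706 in healthy knock-in and 0.388 to 0.787 in wild-type mice. Both genes are steps of the same chain, and every sick mouse had the lower ratio. Sms lies at chrX:157443855-157492287 and Srm at chr4:148591503-148594993, and a pseudogene of Sms in the annotation had 0 counts in all libraries.

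Of the controls of the ODC enzyme, Azin1 was lower in sick mice than in both other groups. In edgeR Oaz1 passed as lower against wild-type mice only, and that call was fragile. Azin1 encodes the antizyme inhibitor, which resembles ODC and frees it from antizyme. It stood at 106, 103, 109.7 and 112 CPM in sick mice, against 259, 177, 201 and 269 CPM in healthy knock-in mice and 218, 137, 224 and 188 CPM in wild-type mice. The sick mice were nearly identical to each other and below every other mouse, the nearest being wild-type mouse 2. Its log2 fold change was -0.83 ± 0.17 for sick against wild-type mice (edgeR adjusted p = 0.00160) and -1.07 ± 0.17 for sick against healthy knock-in mice (edgeR adjusted p = 3.34e-04). Azin1, at chr15:38487427-38519266 on the minus strand, shares exon bases with an annotated antisense gene, Gm49077, and the sources used here do not give whether reads were counted by strand. In the authors' deposited table, tested against a minimum log2 change of 0.5, Azin1 passed for sick against healthy knock-in mice (adjusted p = 0.00970) and not for sick against wild-type mice (adjusted p = 0.234).

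Oaz1 encodes antizyme, which binds ODC and sends it to the proteasome, and which polyamines induce through a ribosomal frameshift. It stood at 112, 109, 177 and 132 CPM in sick mice, against 155, 178, 173 and 191 CPM in healthy knock-in mice and 174, 338, 158 and 164 CPM in wild-type mice. Sick mouse 3 was as high as most other mice, and wild-type mouse 2 stood far above the rest. Its log2 fold change was -0.65 ± 0.24 for sick against wild-type mice (edgeR adjusted p = 0.0381) and -0.39 ± 0.24 for sick against healthy knock-in mice (95% interval -0.92 to 0.13, edgeR adjusted p = 0.200). The call against wild-type mice is fragile: without wild-type mouse 2 the value was -0.33 (edgeR adjusted p = 0.106), and it was also lost without sick mouse 1 (0.0975), 2 (0.0998) or 4 (0.0719). Per exon length the ratio of Azin1 to Oaz1 was 0.253 to 0.389 in sick, 0.406 to 0.682 in healthy knock-in and 0.166 to 0.580 in wild-type mice. Wild-type mouse 2, with its high Oaz1, gave the lowest ratio of all, and without it wild-type mice lay above the sick ones. Oaz1 lies at chr10:80826656-80829290, and the annotated pseudogene Oaz1-ps had 0 counts.

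On the breakdown side the most marked value was that of Aoc1, the diamine oxidase. Aoc1 stood at 106, 122, 109 and 107 CPM in sick mice, against 8.96, 8.45, 8.93 and 5.45 CPM in healthy knock-in mice and 3.32, 15.1, 4.51 and 4.37 CPM in wild-type mice. The sick mice lay close together, with a mean of 111 ± 7.69 CPM (SD, n = 4), and lay far above all others, of which wild-type mouse 2 came nearest. The log2 fold change was 4.0 ± 0.41 for sick against wild-type mice (edgeR adjusted p = 1.07e-05) and 3.80 ± 0.41 for sick against healthy knock-in mice (edgeR adjusted p = 1.77e-05). Without wild-type mouse 2 the value against wild-type mice was 4.76, a 27.0-fold difference, and with limma-voom it was 4.82. The gene lies at chr6:48872896-48909188 on the plus strand.

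Smox, whose enzyme turns spermine back to spermidine and releases hydrogen peroxide, rose as well. It stood at 19.5, 21.7, 22.1 and 18.2 CPM in sick mice, against 6.99, 6.77, 7.44 and 9.77 CPM in healthy knock-in mice and 8.09, 7.07, 5.03 and 7.44 CPM in wild-type mice. The groups did not overlap, and the sick mice stood close together. Its log2 fold change was 1.56 ± 0.18 for sick against wild-type mice (edgeR adjusted p = 2.22e-05), 2.95-fold higher, and 1.40 ± 0.18 for sick against healthy knock-in mice (edgeR adjusted p = 5.75e-05). Smox lies at chr2:131491496-131525922 on the plus strand.

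Sat1 encodes the acetyltransferase that commits spermidine and spermine to export or oxidation. It stood at 248, 371, 529.6 and 342 CPM in sick mice, against 231, 225, 255 and 365 CPM in healthy knock-in mice and 244, 363, 209 and 337 CPM in wild-type mice. Sick mouse 3 was the highest of all, yet sick mouse 1 lay among the others and the groups overlapped. In edgeR its log2 fold change was 0.37 ± 0.25 for sick against wild-type mice (95% interval -0.17 to 0.91, edgeR adjusted p = 0.240) and 0.47 ± 0.25 for sick against healthy knock-in mice (-0.07 to 1.01, edgeR adjusted p = 0.143). With limma-voom Sat1 was called higher against wild-type mice (0.51, adjusted p = 0.0441). Sat1 lies at chrX:155213132-155216449 on the minus strand.

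Scaling bears on every one of these values, since the TMM factors were 1.23 to 1.39 in sick, 0.804 to 0.933 in healthy knock-in and 0.839 to 0.901 in wild-type mice. With library totals alone the median of all genes was shifted up by 0.59 on the log2 scale for sick against wild-type mice, and the 8 genes moved with it. Odc1 was then at -3.11, Sms at -0.62, Smox at 2.15 and Aoc1 at 4.6, and these 4 calls held. Azin1 (-0.24, edgeR adjusted p = 0.207) and Oaz1 (-0.07, edgeR adjusted p = 0.791) were not called, Srm stood at 0.46 (edgeR adjusted p = 0.0636), and Sat1 was called higher (0.95, edgeR adjusted p = 0.00226). Of the 8 genes 3 were thus higher and 2 lower with totals alone, against 2 higher and 4 lower with TMM. For sick against healthy knock-in mice the shift was 0.58, with 3 higher and 3 lower, among them Sat1 at 1.05 (edgeR adjusted p = 0.00118). With upper-quartile scaling Oaz1 was not called either (-0.53, edgeR adjusted p = 0.0836).

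**Figure D2:**
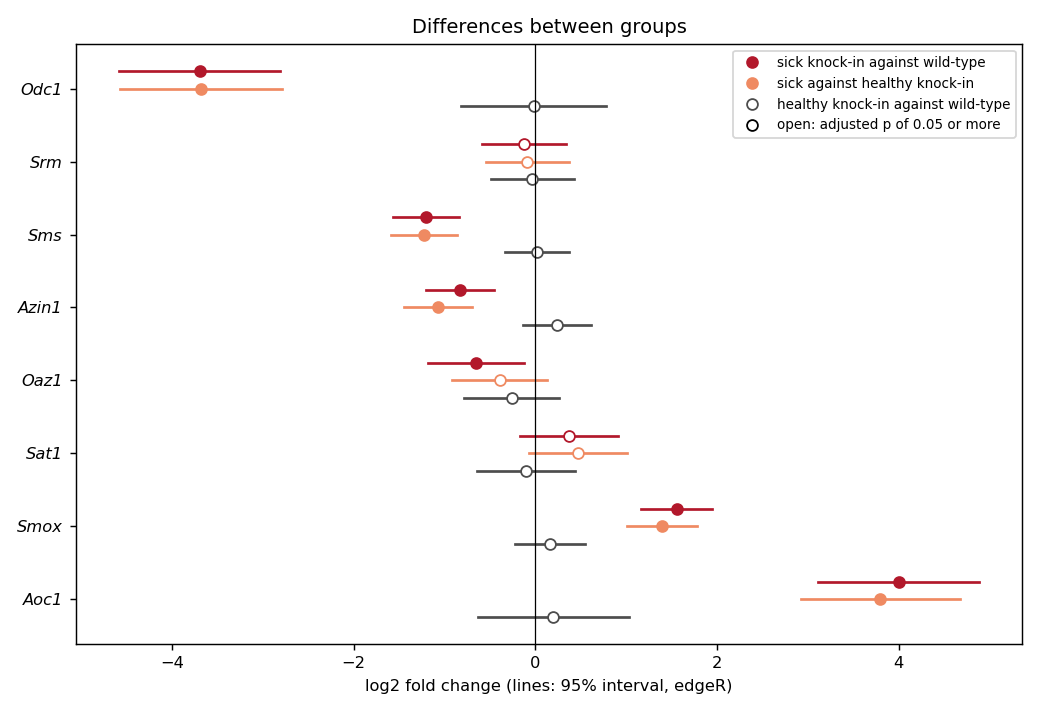
Log2 fold change of each gene on the horizontal axis with its 95% interval from edgeR, for the 3 comparisons, with open points where the adjusted p was 0.05 or more. The comparisons of sick mice, which share the 4 sick libraries, run from -3.70 for Odc1 to 4.0 for Aoc1, and all 8 values between healthy knock-in and wild-type mice are open.

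Healthy knock-in mice carry the same substitution, and their polyamine genes did not pass the test against wild-type mice. None of the 8 genes did so in edgeR, where 0.314% of all genes tested passed, 0.308% higher and 0.00641% lower. None had an unadjusted p under 0.05, DESeq2 called 0, and limma-voom called 1, Aoc1, at 1.07 (adjusted p = 0.0418). In the values above, the healthy knock-in and wild-type ranges overlapped for all 8 genes, where 3.97% of all genes had no overlap. The intervals bound what these mice can show: the log2 fold change was -0.02 for Odc1 (95% interval -0.82 to 0.78), 0.02 for Sms (-0.34 to 0.37), 0.16 for Smox (-0.23 to 0.55) and 0.24 for Azin1 (-0.13 to 0.62). For Aoc1 it was 0.20 (-0.63 to 1.03), and without wild-type mouse 2 it was 0.96 (edgeR adjusted p = 0.0700). The remaining values were -0.10 for Sat1 (-0.64 to 0.44), -0.03 for Srm (-0.49 to 0.43) and -0.26 for Oaz1 (-0.78 to 0.26). Changes within these intervals thus remain compatible with the values of 4 mice a group. Both comparisons against wild-type mice use the same 4 wild-type libraries, so their values are not independent of each other. Skeletal muscle markers stood at a summed 169 to 276 CPM in healthy knock-in kidneys, against 0.260 to 1.5 CPM in wild-type kidneys, with all 5 markers higher and none at 0. In sick kidneys they stood at 0.729 to 10.5 CPM, so they also separate sick from healthy knock-in mice, with all 5 lower in sick mice. For sick against wild-type mice 4 of the 5 were higher and 1 lower. At such low sums elsewhere, the 5 markers were tested largely through the healthy knock-in mice, so these calls are no support. The part of these markers in any of the comparisons was not tested.

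Levels of different genes can be compared only per length, here as RPKM over the union of exons in the reference annotation. In sick mice the order of the means was Sat1 at 134, Oaz1 at 51.8, Odc1 at 39.5, Aoc1 at 34.0, Azin1 at 17.2, Srm at 9.99, Smox at 5.24 and Sms at 2.59 RPKM. In wild-type mice Odc1 led at 512 RPKM, before Sat1 at 104, Oaz1 at 81.5, Azin1 at 30.6, Srm at 10.8, Sms at 5.97, Aoc1 at 2.10 and Smox at 1.77 RPKM. The order in healthy knock-in mice was that of wild-type mice, with Odc1 at 506 and Smox at 1.99 RPKM. In sick mice Odc1 (24.3 to 62.5 RPKM) did not differ beyond its spread from its neighbours Oaz1 (42.5 to 69.4 RPKM) and Aoc1 (32.5 to 37.5 RPKM). In healthy knock-in mice the ranges of Aoc1 (1.67 to 2.75 RPKM) and Smox (1.74 to 2.51 RPKM) overlapped. In wild-type mice those of Sat1 (75.5 to 131 RPKM) and Oaz1 (61.7 to 132 RPKM) overlapped, as did those of Aoc1 (1.02 to 4.63 RPKM) and Smox (1.29 to 2.08 RPKM). The other neighbours in each order did not overlap. Among 15443 genes with a length, Odc1 ranked 909 by mean RPKM in sick, 61 in healthy knock-in and 64 in wild-type mice. Aoc1 ranked 1093 in sick, 9375 in healthy knock-in and 9751 in wild-type mice.

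**Figure D3:**
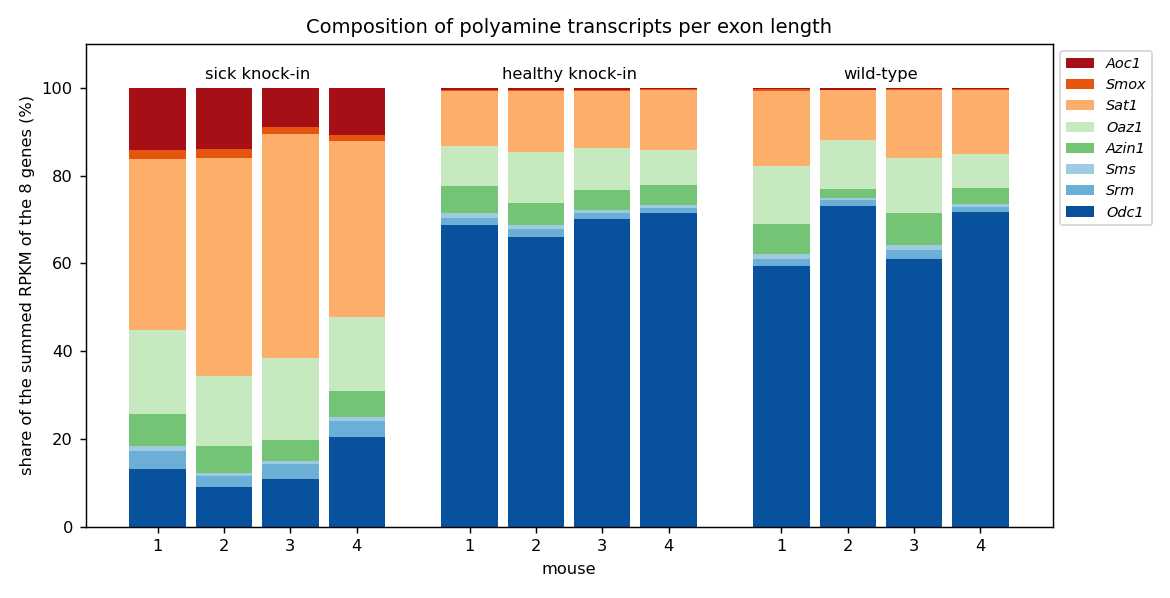
Share of each gene in the summed RPKM of the 8 genes, 1 bar per mouse, in percent. Odc1 makes up 9.04% to 20.3% of the bars of sick mice, against 66.1% to 71.5% in healthy knock-in and 59.4% to 73.2% in wild-type mice.

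Transcripts of the synthetic entry enzyme thus made up the smaller part of the 8 genes in every sick kidney and the larger part in every other kidney. Sat1 held 38.9% to 51.2% of the summed RPKM in sick mice, against 12.5% to 13.8% in healthy knock-in and 11.2% to 17.1% in wild-type mice, although its own level did not pass the test. Aoc1 held 8.94% to 14.1% in sick mice, against 0.176% to 0.441% in healthy knock-in and 0.162% to 0.398% in wild-type mice. The ratio of Odc1 to Aoc1 was 0.648 to 1.90 in sick, 149.9 to 407 in healthy knock-in and 184 to 441 in wild-type mice. In sick mice 1 and 2 Aoc1 exceeded Odc1 per length. These shares and ratios come from the levels tested above and are given without a test of their own.

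Other genes of polyamine metabolism were taken from a list of 35, of which 30 were tested. Against wild-type mice 6 were higher and 14 lower, and 10 did not pass, where 25.9% of all genes were higher and 25.0% lower. The median log2 fold change was -0.30 beside 0.02 over all genes. Sick against healthy knock-in mice gave 5 higher, 12 lower and 13 not passing, where 24.5% of all genes were higher and 21.9% lower, with a median of -0.20 beside 0.05. The higher genes of both comparisons include Arg1, which had enough counts to be tested only through the sick mice. With library totals alone the split was 13 higher and 8 lower against wild-type mice and 13 higher and 6 lower against healthy knock-in mice, so the balance of directions depends on the scaling. Between healthy knock-in and wild-type mice none passed in edgeR, at an unadjusted p under 0.05, in DESeq2 or in limma-voom. Below, Arg1, Arg2, Slc22a3, Agmat, Slc22a2 and Aldh9a1 follow from a rule of size, Amd1 is given whatever its value, and the remaining names were chosen after their values were seen.

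**Figure D4:**
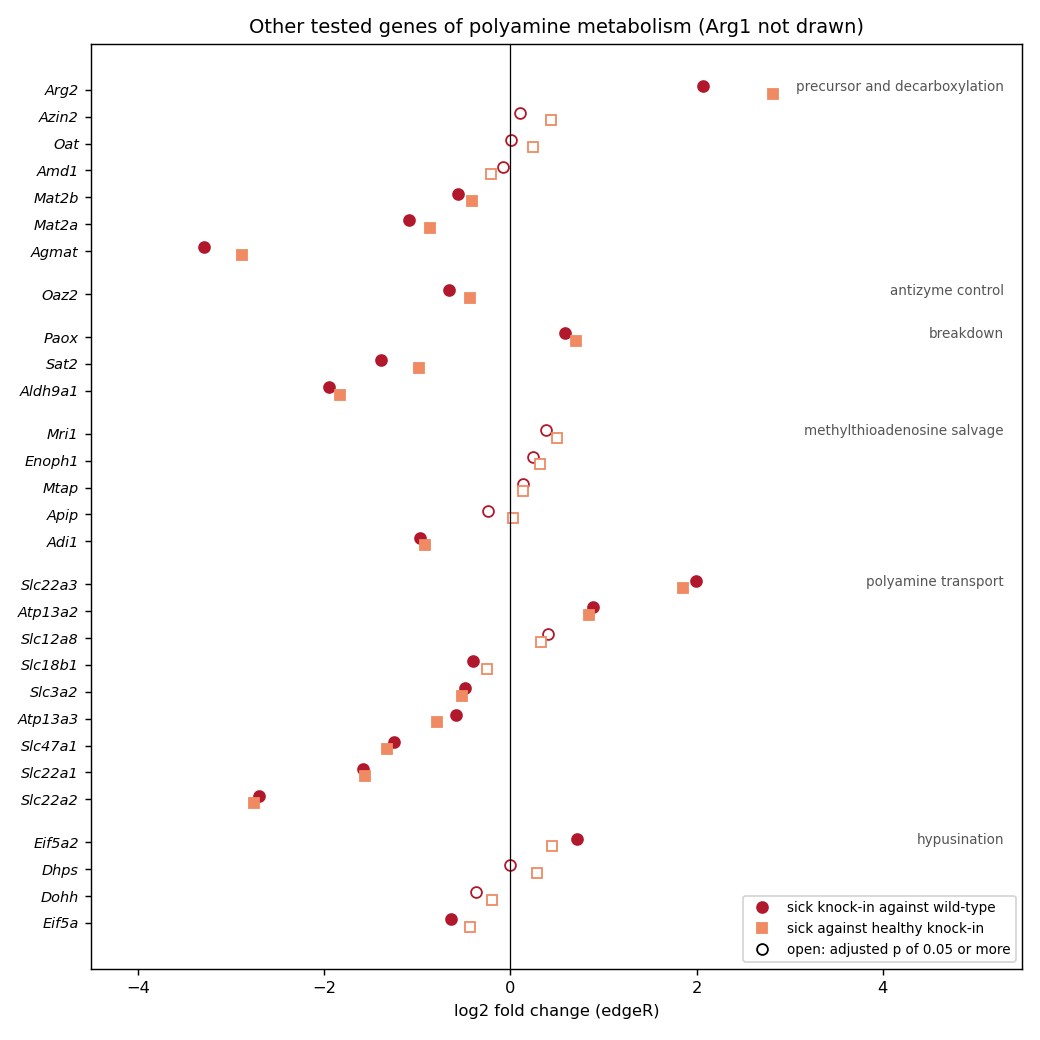
Log2 fold change of the tested genes of the list, by role, for sick against wild-type mice (circles) and sick against healthy knock-in mice (squares), with open symbols where the edgeR adjusted p was 0.05 or more. Arg1 is not drawn because wild-type mice held 3 counts in all; Agmat, at -3.29 and -2.88, lies farthest to the left.

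Among the genes that supply precursors, 2 of 8 were higher and 3 lower in sick mice in both comparisons, where 50.9% of all genes were called against wild-type and 46.4% against healthy knock-in mice. Arg2 encodes the mitochondrial arginase, which makes ornithine. It stood at 47.3, 55.1, 89.5 and 27.1 CPM in sick mice, against 2.22, 11.2, 10.8 and 6.59 CPM in healthy knock-in mice and 10.3, 26.1, 9.88 and 5.74 CPM in wild-type mice. All sick mice were above all others, narrowly so for sick mouse 4 and wild-type mouse 2. The log2 fold change of Arg2 was 2.07 ± 0.53 for sick against wild-type mice (edgeR adjusted p = 0.00589), or 2.66 without wild-type mouse 2, and 2.82 ± 0.55 for sick against healthy knock-in mice (edgeR adjusted p = 0.00115). Arg1, the cytosolic arginase known from liver and from some macrophages, stood at 12.4, 0.531, 1.23 and 1.23 CPM in sick mice, while healthy knock-in mice held 5 counts and wild-type mice 3 counts over 4 libraries. Arg1 is 1 of the 2 counted as higher, and since it was tested only through the sick mice, its call is no support. Its level was low in all but sick mouse 1.

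Agmat encodes agmatinase, which gives putrescine from agmatine without ODC. Agmat stood at 0.487, 0.564, 0.844 and 1.08 CPM in sick mice, against 5.46, 4.78, 6.35 and 5.05 CPM in healthy knock-in mice and 7.20, 6.72, 7.97 and 6.79 CPM in wild-type mice. The sick mice lay far below all others, and healthy knock-in mice below wild-type mice by a difference that did not pass (edgeR adjusted p = 0.912). The log2 fold change was -3.29 ± 0.26 for sick against wild-type mice (edgeR adjusted p = 2.36e-06), 9.77-fold lower, and -2.88 ± 0.26 for sick against healthy knock-in mice (edgeR adjusted p = 5.65e-06). Mat2a, the catalytic subunit of S-adenosylmethionine synthesis outside the liver, was lower as well (-1.08 ± 0.19 against wild-type mice, edgeR adjusted p = 4.14e-04). Amd1 encodes the decarboxylase that provides the aminopropyl donor, and it did not pass. It stood at 14.7, 14.9, 15.4 and 18.1 CPM in sick mice, against 18.1, 19.6, 22 and 13.1 CPM in healthy knock-in mice and 15, 13.0, 18.5 and 20.4 CPM in wild-type mice. Its log2 fold change was -0.08 ± 0.19 against wild-type mice (edgeR adjusted p = 0.737), and 0.51 with library totals alone (edgeR adjusted p = 0.0397).

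Of the further genes of control and breakdown, Oaz2, a second antizyme, was lower in sick than in wild-type mice (-0.66 ± 0.13, edgeR adjusted p = 0.00110). Sat2, a relative of Sat1 in the breakdown list, was lower too. It stood at 5.68, 4.45, 8.59 and 5.5 CPM in sick mice, against 13.2, 10.9, 12.2 and 11.2 CPM in healthy knock-in mice and 13.9, 23.3, 15.6 and 10.2 CPM in wild-type mice, with no overlap of sick mice and either other group. The log2 fold change of Sat2 was -1.39 ± 0.26 for sick against wild-type mice (edgeR adjusted p = 6.69e-04) and -0.99 ± 0.25 for sick against healthy knock-in mice (edgeR adjusted p = 0.00696). Aldh9a1 encodes an aldehyde dehydrogenase that oxidises the aminobutyraldehyde made from putrescine. It stood at 111, 132, 209.7 and 163 CPM in sick mice, against 571, 542, 515 and 556 CPM in healthy knock-in mice and 572, 577, 662 and 569 CPM in wild-type mice. The sick mice were all below the others. Its log2 fold change was -1.95 ± 0.18 for sick against wild-type mice (edgeR adjusted p = 5.87e-06) and -1.83 ± 0.18 for sick against healthy knock-in mice (edgeR adjusted p = 1.18e-05). So Aoc1, which generates an aldehyde from putrescine, was higher while Aldh9a1, whose product oxidises it, was lower. Paox, the oxidase of acetylated polyamines, was slightly higher (0.59 ± 0.23 against wild-type mice, edgeR adjusted p = 0.0454), with overlapping groups in that comparison.

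Transport genes split by member. Of 9 tested, 2 were higher and 6 lower against wild-type mice, and 2 were higher and 5 lower against healthy knock-in mice. These counts stand beside 25.9% higher and 25.0% lower over all genes against wild-type mice, and 24.5% and 21.9% against healthy knock-in mice. They were taken with TMM scaling, and the transport genes were not counted by themselves with library totals alone. Slc22a2 encodes an organic cation transporter of the basolateral side of the proximal tubule. Slc22a2 stood at 20.9, 43.2, 87.0 and 90.3 CPM in sick mice, against 376, 410.4, 413 and 432 CPM in healthy knock-in mice and 358, 490.2, 338 and 381 CPM in wild-type mice. Every sick mouse was far below every other mouse, and sick mouse 1 was the lowest. In edgeR its log2 fold change was -2.70 ± 0.37 for sick against wild-type mice (edgeR adjusted p = 7.15e-05), 6.5-fold lower, and -2.76 ± 0.37 for sick against healthy knock-in mice (edgeR adjusted p = 7.77e-05). Its relative Slc22a3, a more widely expressed organic cation transporter, stood at 5.27, 5.91, 4.30 and 9.81 CPM in sick mice, against 1.46, 1.79, 2.52 and 1.19 CPM in healthy knock-in mice and 1.94, 1.24, 2.34 and 0.913 CPM in wild-type mice. The sick mice were all higher. The log2 fold change of Slc22a3 was 1.99 ± 0.36 for sick against wild-type mice (edgeR adjusted p = 6.15e-04) and 1.86 ± 0.35 for sick against healthy knock-in mice (edgeR adjusted p = 0.00101). Atp13a2, a lysosomal polyamine exporter, was also higher (0.89 ± 0.13 against wild-type mice, edgeR adjusted p = 1.69e-04).

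The 5 genes of methylthioadenosine salvage, which recycles the by-product of spermidine and spermine synthesis, gave 0 higher, 1 lower and 4 not passing in both comparisons. The 4 genes around hypusine, the spermidine-derived residue of the translation factor eIF5A, gave 1 higher and 1 lower against wild-type mice and none against healthy knock-in mice. Over all genes 25.9% were higher and 25.0% lower against wild-type mice, and 24.5% and 21.9% against healthy knock-in mice. The counts therefore do not set these lists apart. Eif5a itself was at -0.63 ± 0.21 against wild-type mice (edgeR adjusted p = 0.0207), with overlapping groups. Wild-type mouse 2 was at 544 CPM, where wild-type mice 1, 3 and 4 were at 312, 308 and 335 CPM. Against healthy knock-in mice Eif5a was at -0.43 and did not pass (edgeR adjusted p = 0.103). The gene called higher against wild-type mice was Eif5a2 (0.72, edgeR adjusted p = 0.0446), also with overlapping groups.

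The genes most like Odc1 over the 12 libraries, by the root mean square difference of centred log2 CPM, were Ces2b (0.32), Ldhd (0.37) and Proc (0.38). Those most like Aoc1 were Gpnmb (0.45), S100a6 (0.49) and Apoe (0.49). For Sat1 they were Gt(ROSA)26Sor, B2m and Crem, at 0.18, 0.18 and 0.19. The profiles share libraries and scaling, and the values are a description.

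Markers of several kidney cell types also differed in sick mice, while few or mixed calls were found for others. Proximal tubule markers, the defining genes of the cells that make up most of the cortex, were lower in sick mice for 12 of 12, with summed levels of 3833 to 8174 CPM in sick, 21677 to 30503 CPM in healthy knock-in and 20435 to 27915 CPM in wild-type mice. Markers of its straight segment were lower for 6 of 6, with 543 to 783 CPM in sick, 3630 to 4895 CPM in healthy knock-in and 3927 to 5121 CPM in wild-type mice. Injured tubule markers were higher for 10 of 10, at 9148 to 15448 CPM in sick, 743 to 1027 CPM in healthy knock-in and 571 to 952 CPM in wild-type mice. Macrophage markers (12 of 12 higher, 1023 to 2057 CPM in sick, 220 to 286 CPM in healthy knock-in and 145 to 280 CPM in wild-type mice) and fibroblast markers (9 of 9 higher, 2927 to 5930 CPM in sick, 396 to 966 CPM in healthy knock-in and 425 to 612 CPM in wild-type mice) rose too. These counts held in both comparisons of sick mice. Urothelium markers were higher for 5 of 5 against wild-type mice but for only 1 of 5 against healthy knock-in mice. Their sums were 24.6 to 201 CPM in sick, 1.08 to 61.7 CPM in healthy knock-in and 1.21 to 5.13 CPM in wild-type mice. These urothelium markers were tested largely through the sick mice, where their levels are high, so their calls are no support. The 4 adipose markers tested were all higher, at a sum over the 5 listed of 20.3 to 1104 CPM in sick, 3.12 to 27.9 CPM in healthy knock-in and 5.54 to 49.0 CPM in wild-type mice. Thick ascending limb markers were lower for 2 of 5 against wild-type and 1 of 5 against healthy knock-in mice, with none higher, at 474 to 3865 CPM in sick, 2450 to 6534 CPM in healthy knock-in and 5165 to 5639 CPM in wild-type mice. Every sick mouse was thus below every wild-type mouse in that sum. Distal tubule and collecting duct markers were higher for 1 of 8 and lower for 3 in both comparisons. Endothelium markers were lower for 1 of 6 in both, with none higher. Podocyte markers were higher for 2 of 5 against wild-type mice, and higher for 2 and lower for 2 against healthy knock-in mice. Markers of dividing cells were higher for 1 of 6 against wild-type mice, and none was called against healthy knock-in mice. Of 6 T and B lymphocyte markers tested, 4 were higher against wild-type mice, with 1 higher and 1 lower against healthy knock-in mice. The sums over 8 were 7.33 to 22.1, 6.66 to 12.9 and 4.33 to 5.61 CPM in sick, healthy knock-in and wild-type mice. Of 4 neutrophil markers tested, 2 were higher against wild-type and 1 against healthy knock-in mice. The sums over 6 were 5.52 to 17.1, 3.72 to 12.8 and 1.78 to 5.35 CPM in the same order. Over all genes 25.9% were higher and 25.0% lower against wild-type mice, and 24.5% and 21.9% against healthy knock-in mice. No marker of these lists was at 0 over a whole group. In whole kidney, fewer cells of a type and less RNA per cell cannot be told apart, and the part of these markers in the polyamine values was not tested.

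Because Odc1 is known as an androgen-responsive kidney gene, 7 others of that kind were listed. Against wild-type mice 6 of the 7 were lower in sick mice, with a median log2 fold change of -4.6, and against healthy knock-in mice 7 of 7 were lower. Their summed level was 265 to 1592 CPM in sick and 23775 to 33399 CPM in healthy knock-in mice, while in wild-type mice it was 3822 CPM in mouse 2 and 27991 to 34134 CPM in the other 3. Wild-type mouse 2 thus had a low level of these genes together with the highest Odc1 of all 12 mice. The 6 genes of MYC and its partners, MYC being a known activator of Odc1, gave 1 higher and 1 lower of 6 in both comparisons of sick mice, with medians of 0.26 and 0.22. The 6 NRF2 target genes gave 3 higher and 1 lower against wild-type mice, and 2 higher and 1 lower against healthy knock-in mice. All these counts stand beside 25.9% of all genes higher and 25.0% lower against wild-type mice, and 24.5% and 21.9% against healthy knock-in mice. The part of any of these lists in the levels of Odc1 or Sat1 was not tested.

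Total counts were 10605546 to 22633684 in sick, 18191087 to 21925419 in healthy knock-in and 13189478 to 19493856 in wild-type libraries. Mitochondrial genes took 5.29% to 9.06% of counts in sick, 14.3% to 15.7% in healthy knock-in and 11.1% to 16.5% in wild-type libraries. Wild-type mouse 2 stood apart on the second principal component, at -84.7 where the other 3 were at 1.34 to 18.3. Without it 5 of the 8 genes passed for sick against wild-type mice, 2 higher and 3 lower, the gene lost being Oaz1.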

How the data were processed

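Kidney RNA of 12 male mice was measured: 4 sick knock-in, 4 healthy knock-in and 4 wild-type, each as 1 library. The p-values of the main fit set a group difference against the spread between mice within groups, estimated over all 12 libraries. The labels' protocols name a miRvana kit for extraction, DNase, and Trueseq libraries. Per the submitters' processing notes, the tools were TopHat2 2.0.11, Cufflinks, Trim Galore 0.3.7 and DESeq2 1.12.4, with GRCm38. The sources used here do not give the counting program, its annotation or its strand setting. Raw counts per gene are in the deposited table, per its file headers, with 1 column for each library. The authors' deposited table adds other values for each comparison, namely log2 fold changes, their SE, test statistics and adjusted p-values. Those statistics match, within 0.01, a test against a minimum log2 change of 0.5 in 100% of the genes beyond it. Another 12 columns of normalised values were not used.

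The model was edgeR 4.0.16 in R 4.3.3 (quasi-likelihood, TMM, filterByExpr by group, 1 mean per group, no covariates) over the 12 libraries together. It tested 15589 genes, with Benjamini-Hochberg adjustment and a threshold of 0.05. Each SE is the log2 fold change over the root of its F statistic. RPKM used the union of exons in a reference annotation of GRCm38, which held 37605 of the 39171 gene IDs (96.00%), and promoter windows came from RefSeq. The fit was first tested on simulated data.

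Named by rule were the 8 genes, the 3 highest and 3 most negative of the further pathway list past the threshold with Amd1, and the 3 genes of nearest profile to Odc1, Aoc1 and Sat1. Other genes of the pathway list were named after their values were seen. Azin2 appears in the table as Adc. Amd2, Mat1a, Oaz3, Satl1 and Slc22a16 had too few counts to be tested. Members and lists were chosen with earlier results of these data known. As alternatives, libraries were scaled by DESeq2 size factors, by upper quartiles or by totals alone. The filter was dropped or made stricter (1 CPM in 4 libraries), only the 8 libraries compared were fitted, and replicate numbers entered as a block. DESeq2 1.42.0 and limma-voom (limma 3.58.1, quality weights) replaced edgeR, and each library was left out in turn.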

Additional observations from a re-analysis of the deposited data

Results flagged for a closer look

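In each of the 3 groups the level of each of the 8 genes was checked for a mouse that stood apart from its group by Dixon's ratio, in 24 sets of 4 mice. Chance alone gives such a mouse in about 1 of 20 sets, and 3 were found. Aoc1 was at 5.45 CPM in healthy knock-in mouse 4, where the other 3 healthy knock-in mice were at 8.45 to 8.96 CPM. Aoc1 was at 15.1 CPM in wild-type mouse 2, where the other 3 wild-type mice were at 3.32 to 4.51 CPM. Oaz1 was at 338 CPM in wild-type mouse 2, where the other 3 were at 158 to 174 CPM.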

How the results depend on the processing

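Odc1, Sms, Smox and Aoc1 kept their direction and call in both comparisons of sick mice under all 9 settings and without each library. Of 761 values of single genes under alternatives 713 kept direction and side of the threshold, 9 lost the threshold, 5 gained it and 34 changed sign, the last for values that had not passed. The 9 losses were 8 of Oaz1 and 1 of Azin1 for sick against wild-type mice, among them Oaz1 with the 8 libraries alone (-0.66, adjusted p = 0.0801). Oaz1 passed for sick against healthy knock-in mice with limma-voom (-0.46, adjusted p = 0.0156). Between healthy knock-in and wild-type mice 49 genes changed, against 81 with DESeq2 and 86 with limma-voom, and of the 8 genes 1 with limma-voom.

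Sign changes with upper-quartile scaling were 0.0035 for Srm and 0.045 for Amd1 (sick against wild-type) and 0.029 for Srm (sick against healthy knock-in). Sign changes with library totals alone were 0.46 for Srm and 0.51 for Amd1 (sick against wild-type), and 0.49 for Srm, 0.18 for Oaz1 and 0.36 for Amd1 (sick against healthy knock-in). With limma-voom they were 0.015 for Srm (sick against wild-type) and, healthy knock-in against wild-type, 0.52 for Odc1, 0.055 for Sat1, 0.23 for Srm, -0.073 for Sms, 0.0067 for Oaz1 and -0.073 for Slc22a3. Without each library in turn, values spanned -0.25 to 0.078 for Srm and -0.20 to 0.020 for Amd1 (sick against wild-type) and -0.20 to 0.055 for Srm (sick against healthy knock-in). Healthy knock-in against wild-type they spanned -0.20 to 0.34 for Odc1, -0.022 to 0.96 for Aoc1, -0.29 to 0.029 for Sat1, -0.15 to 0.18 for Srm, -0.086 to 0.097 for Sms, -0.37 to 0.076 for Oaz1, -0.099 to 0.36 for Slc22a3 and -0.0073 to 0.18 for Slc22a2. The cause of these changes was not tested.

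Deviations of same-numbered mice correlated at -0.26 to 0.22 (sick and wild-type), -0.02 to 0.06 (sick and healthy knock-in) and -0.11 to 0.24 (healthy knock-in and wild-type). The same-numbered mouse was the best match for 2 of 4 mice in each comparison against wild-type mice. For sick against healthy knock-in mice it was so for 0 of 4. These few correlations cannot settle whether replicate numbers pair the mice. With the replicate block 5 of the 8 genes passed for sick against wild-type mice, Oaz1 being at -0.62 (adjusted p = 0.0680), 5 for sick against healthy knock-in mice and 0 between healthy knock-in and wild-type mice, where Odc1 was at 0.030. With the share of higher calls over all genes at 50.8% for sick against wild-type and 52.7% for sick against healthy knock-in mice, library totals alone gave 84.0% and 85.8%. The adjusted p-values rest on 4 mice a group, and Srm, Sms, Smox and, outside sick mice, Aoc1 were the members with the fewest counts.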
